A study of Mus musculus with 36 samples.

Results

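A set of 7 genes of epithelial cell junctions that are known from Langerhans cells, Cdh1, Cldn1, Epcam, Tjp1, F11r, Ctnnb1 and Ctnna1, were followed in CDP (common dendritic cell progenitors) and MPP (multipotent progenitors) of the mouse. They were 7 of 19938 genes measured on the arrays, each by 1 probe set. The genes were chosen by name from results already known for these data, above all the rise of Cldn1, Cdh1 and Epcam in CDP against 0 h. Their changes in CDP, the CDP minus MPP difference of responses at 24 h and the changes of Cdh1 in MPP are therefore given as a description, with no test. The changes of the other 6 genes in MPP were tested, as were the levels in untreated CDP against untreated MPP and the changes of 179 other junction genes. The 179 also hold E-cadherin repressors, ligands and β-catenin signalling genes, and are called other junction genes for short.

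Both progenitors were grown from mouse bone marrow in a cytokine cocktail and sorted by flow cytometry. They were then treated with recombinant human TGF-β1 at 10 ng/ml for 2, 4, 8, 12 or 24 h, or left untreated (0 h). Each of the 12 groups held 3 arrays, 36 in all, from what the study calls biological replicates. The submitters' treatment text gives another hour for the samples titled 8 h, and the titles were followed. The strain, age and sex of the mice are not given in the sources used here, and each group is a culture of sorted cells, not a tissue. The untreated arrays are those of 0 h only, so that hours of TGF-β1 and hours of culture cannot be told apart.

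In epithelia, E-cadherin (Cdh1) holds neighbouring cells together by binding E-cadherin on the next cell. Its tail binds β-catenin (Ctnnb1), which binds α-catenin (Ctnna1) and through it the actin skeleton. Claudin-1 (Cldn1) and junctional adhesion molecule A (F11r) are membrane proteins of tight junctions, and ZO-1 (Tjp1) is the scaffold beneath them. EpCAM (Epcam) is an adhesion molecule of many epithelia and binds claudins. Langerhans cells, which are dendritic cells that live among keratinocytes in the skin, adhere to those cells by E-cadherin, carry EpCAM and claudin-1, and need TGF-β1 to form.

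The 250 bases before the start site of 4 of the genes that rose most are shown, since TGF-β1 signals through Smad factors and since repressors of the Snail and Zeb families bind E-boxes. They were taken from RefSeq on GRCm38.p6, and each reads 5′ to 3′ along the gene's strand. Such windows were used for 5 of the 7 genes, and the promoters of Cdh1 and Ctnna1 were not examined. Capitals mark the E-box letters CACCTG, which read CAGGTG where the motif lies on the other strand, and the Smad half-site CAGAC, which then reads GTCTG. The windows were chr16:26371840-26372089 (minus strand) for Cldn1, chr17:87635729-87635978 (plus) for Epcam, chr1:171437311-171437560 (plus) for F11r and chr7:65371245-65371494 (minus) for Tjp1. The Tjp1 window lies inside the annotated span of that gene, before 1 of its later start sites.
Cldn1: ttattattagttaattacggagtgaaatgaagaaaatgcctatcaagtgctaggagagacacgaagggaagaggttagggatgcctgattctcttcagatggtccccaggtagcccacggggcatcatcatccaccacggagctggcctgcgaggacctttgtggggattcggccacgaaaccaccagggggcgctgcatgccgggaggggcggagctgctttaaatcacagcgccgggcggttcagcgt
Epcam: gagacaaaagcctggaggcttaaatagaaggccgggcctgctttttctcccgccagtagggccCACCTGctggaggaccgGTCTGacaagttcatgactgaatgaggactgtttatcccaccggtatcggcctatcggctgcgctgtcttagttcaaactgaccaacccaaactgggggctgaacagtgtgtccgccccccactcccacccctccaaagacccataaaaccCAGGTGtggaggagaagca
F11r: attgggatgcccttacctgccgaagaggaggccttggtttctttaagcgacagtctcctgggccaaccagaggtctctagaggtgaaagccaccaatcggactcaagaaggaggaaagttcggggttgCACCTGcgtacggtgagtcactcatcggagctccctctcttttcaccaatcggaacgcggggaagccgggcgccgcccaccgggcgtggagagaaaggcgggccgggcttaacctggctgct
Tjp1: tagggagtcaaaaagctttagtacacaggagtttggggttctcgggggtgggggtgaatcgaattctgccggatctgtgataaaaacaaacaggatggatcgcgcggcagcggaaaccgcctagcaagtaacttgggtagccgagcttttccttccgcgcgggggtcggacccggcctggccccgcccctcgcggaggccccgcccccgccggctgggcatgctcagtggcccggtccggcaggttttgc
The Epcam window held 2 E-boxes, which began 187 and 19 bases before the start site, and 1 Smad half-site, which began 170 bases before it. The F11r window held 1 E-box, 122 bases before the start site. The Cldn1 and Tjp1 windows held neither run of letters, and no 2 matches overlapped. Of the windows of Ctnnb1, which are not shown, that at chr9:120933150-120933399 held 1 Smad half-site, 110 bases before the start site. That at chr9:120933328-120933577 held none, and neither held an E-box. Of 32851 mouse promoter windows of the same length, 17.2% held the E-box and 42.2% the Smad half-site on either strand. A match of letters is a description and not a binding site.

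All levels are log2 values from robust multi-array averaging, which puts each array on a common scale. A difference of 1 is then a 2-fold difference, and levels of different genes are not compared, because their probe sets differ. A gene was called where limma gave an adjusted p under 0.01 and an absolute log2 difference of at least 1, with p adjusted over all 19938 genes. Array medians lay between 7.87 and 7.96, and arrays of a group correlated at 0.985 or more. One array of each cell type stood furthest apart in interferon-stimulated genes. The mean log2 level of 7 such genes was 12.8 in CDP 2 h replicate 3, against 7.57 to 10.71 in the other 17 CDP arrays, and 8.92 in MPP 0 h replicate 3, against 7.42 to 8.01 in the other 17 MPP arrays. The other CDP arrays were not alike. At 0 h, which enters every CDP difference, replicate 3 read 10.71, against 8.44 and 8.21 in replicates 1 and 2. Replicate 3 was the highest in CDP at 8, 12 and 24 h too. At 4 h replicates 1 and 3 read 10.66 and 10.06, against 8.04 in replicate 2. Calls lost without CDP 2 h replicate 3 or MPP 0 h replicate 3 are given where the gene is described, for the calls that were refitted. Those were calls of the 7 genes in MPP, in untreated cells and in CDP at 2 and 24 h. For the other junction genes they were calls at 24 h or in untreated cells. Calls in CDP at 4, 8 and 12 h, those of other junction genes before 24 h and those of markers outside the junction lists were not refitted.

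Claudin-1 made the largest rise of all 19938 genes in CDP at 24 h. Cldn1 levels in CDP (replicates 1, 2 and 3) were 6.76, 6.96 and 6.97 at 0 h and 7.53, 7.85 and 8.41 at 2 h. They were 8.40, 8.97 and 8.78 at 4 h and 9.25, 9.67 and 10.41 at 8 h. At 12 h they were 10.84, 11.15 and 11.47, and at 24 h 12.99, 12.60 and 13.18. The 3 arrays of 0 h lay below those of every later time, and the ranges of neighbouring times overlapped only between 2 and 4 h. The mean rose by 6.02 ± 0.18 (log2 difference ± SE, n = 3 each) at 24 h, a 65.1-fold difference, with the gene's highest array of 0 h at 6.97 and its lowest of 24 h at 12.60. Leaving out arrays in turn moved the difference between 5.82 and 6.22. In these bulk samples, more cells that express a gene and more RNA per cell cannot be told apart.

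E-cadherin followed with the rise of rank 6 among all genes. Cdh1 levels in CDP were 8.33, 9.29 and 8.60 at 0 h, 9.20, 10.18 and 8.71 at 2 h, and 9.44, 10.78 and 9.73 at 4 h. Replicate 2 was the highest array at each of these times, and the ranges of 0 and 2 h and of 2 and 4 h overlapped, but not those of 0 and 4 h. The levels were 10.94, 11.15 and 11.44 at 8 h, 11.76, 12.02 and 11.80 at 12 h, and 12.53, 12.94 and 12.73 at 24 h, with no overlap between neighbouring times from 4 h on. The difference from 0 h was 0.63 ± 0.24 at 2 h, 1.25 ± 0.24 at 4 h, 2.44 ± 0.24 at 8 h, 3.12 ± 0.24 at 12 h and 4.00 ± 0.24 at 24 h, the last a 16-fold difference that ran from 3.89 to 4.17 on the log2 scale when arrays were left out.

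EpCAM came late in CDP. Epcam levels were 6.32, 6.44 and 6.33 at 0 h, 6.39, 6.42 and 6.36 at 2 h, and 6.49, 6.55 and 6.63 at 4 h. They were 6.52, 6.97 and 6.95 at 8 h, 7.05, 7.32 and 7.44 at 12 h, and 8.67, 8.95 and 9.02 at 24 h. The arrays of 24 h stood above all others by more than the spread within any group. The difference from 0 h was 0.45 ± 0.08 at 8 h, 0.91 ± 0.08 at 12 h and 2.52 ± 0.08 at 24 h (5.74-fold). The levels of 0 h lay below the lower quartile of all levels (6.52), where no detection measure was used, so that fold and shares are those of the measured values.

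The tight junction partners F11r and Tjp1 also went up in CDP, with different timing. F11r levels were 9.94, 10.42 and 10.70 at 0 h and 11.88, 11.89 and 11.75 at 2 h, with 12.18, 12.36 and 12.50 at 4 h. From then on they moved little, with 12.43, 12.55 and 12.67 at 8 h, 12.59, 12.71 and 12.73 at 12 h, and 12.70, 12.65 and 12.69 at 24 h. The spread of the 0 h arrays (SD 0.38) had shrunk to 0.03 at 24 h, and the replicate lowest at 0 h had the largest difference, with 2.76, 2.23 and 1.99 in replicates 1, 2 and 3. F11r had made 63.8% of its 24 h log2 change at 2 h and 85.6% at 4 h. Tjp1 levels in CDP were 6.24, 6.32 and 6.16 at 0 h, 6.90, 6.51 and 6.42 at 2 h, and 6.76, 6.94 and 6.62 at 4 h. They were 7.12, 7.31 and 7.12 at 8 h, 7.40, 7.41 and 7.31 at 12 h, and 8.05, 8.67 and 7.95 at 24 h. All arrays after 0 h were above those of 0 h, and the difference was 1.98 ± 0.13 at 24 h (3.96-fold). Like those of Epcam, the Tjp1 levels of 0 h in CDP lay below the lower quartile of all levels (6.52). Its fold and shares are thus those of the measured values.

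The catenins, which link E-cadherin to actin, had far smaller differences. Ctnnb1 lay between 12.59 and 12.90 on all 18 CDP arrays, and its 24 h difference was 0.06 ± 0.05. Its largest difference was 0.24 ± 0.05 at 4 h, when its 3 arrays read 12.85, 12.90 and 12.87 in CDP, against 12.61, 12.70 and 12.59 at 0 h. Ctnna1 levels in CDP were 11.25, 11.43 and 11.44 at 24 h, against 10.87, 11.14 and 10.99 at 0 h, a difference of 0.38 ± 0.06 with no overlap.

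**Figure D1:**
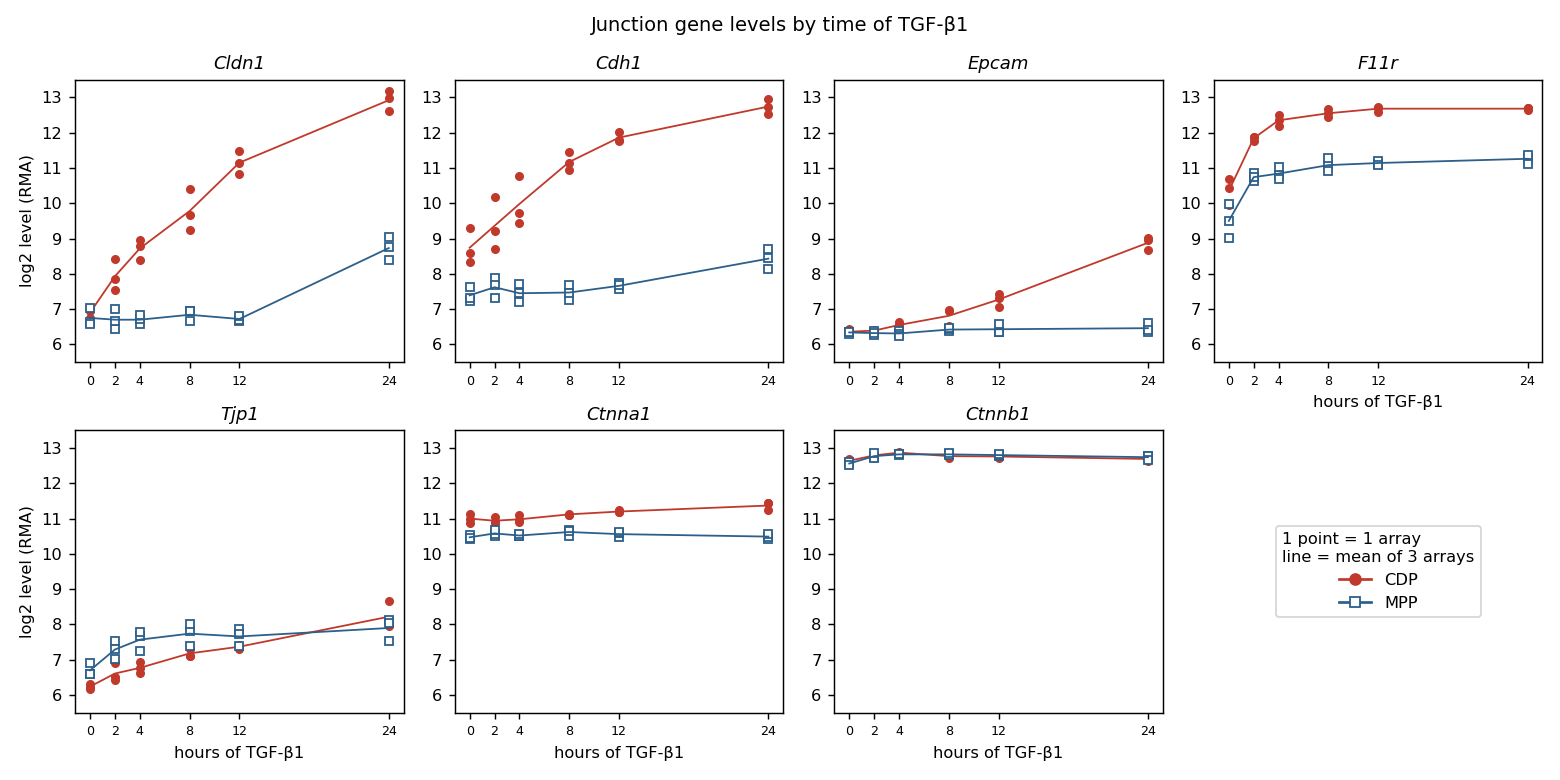
Log2 level (RMA) of the 7 junction genes against hours of TGF-β1 (linear axis), with 1 point per array, filled circles for CDP, open squares for MPP and lines through the means of 3 arrays. Cldn1 in CDP reached 12.60 to 13.18 at 24 h, against 8.39 to 9.03 in MPP, while Ctnnb1 lay between 12.53 and 12.90 in both.

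In number, 2 of the 7 genes (Cldn1 and F11r) were past the call rule in CDP at 2 h, when 0.326% of all genes were. At 4 h it was 3 (with Cdh1; 0.702% of all genes), at 8 h the same 3 (1.27%), at 12 h 4 (with Tjp1; 1.86%) and at 24 h 5 (with Epcam; 3.14%). These genes were chosen on this comparison, so nothing is read from the counts. The Cldn1 difference at 2 h, 1.03 ± 0.18, came from pairs of 0.76, 0.89 and 1.45, the last with the array that stood apart in interferon-stimulated genes. Without that array the difference was 0.93, under the fold limit, and 1 of the 7 genes (F11r) was past the rule at 2 h. The genes nearest to the fold limit at 24 h were Tjp1 inside it with 1.98 and Ctnna1 outside it with 0.38, neither of them close to it.

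In CDP F11r had the largest share of its 24 h change at each earlier time and Epcam the smallest. At 8 h F11r had made 94.4% of its 24 h change, Cdh1 61.0%, Cldn1 47.8%, Tjp1 47.5% and Epcam 17.9%. At 12 h these shares were 99.9%, 78.1%, 70.6%, 57.3% and 36.1% in the same order. Shares of Cldn1 and Tjp1 at 8 h cannot be ordered given the SE of each difference.

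**Figure D2:**
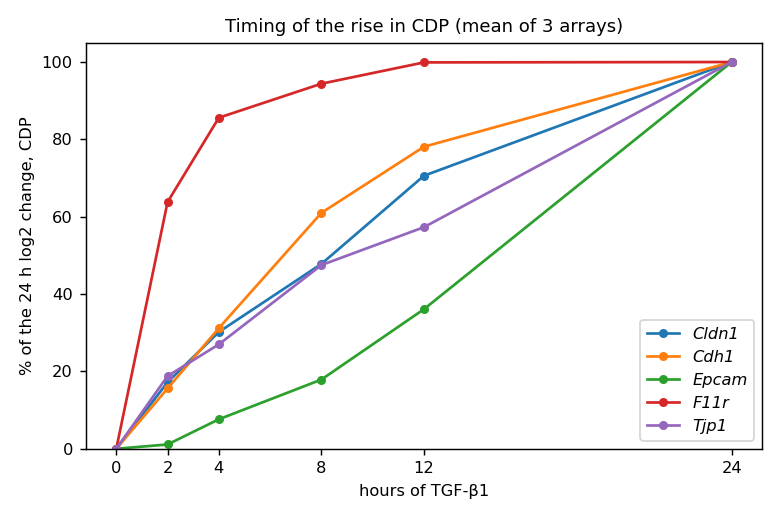
Share of the 24 h log2 change (%) reached in CDP at each time of TGF-β1, from the mean of 3 arrays, for the 5 genes past the call rule at 24 h. F11r had reached 85.6% at 4 h, where Epcam had reached 7.63%.

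In MPP 3 of the 6 genes tested rose by 24 h, when 1.2% of all genes were called. The MPP arrays do not enter the changes in CDP, but those of 0 and 24 h enter the difference of responses. The genes were chosen with earlier results of these data known, so the choice was not blind to this series. The p-values in MPP are thus not independent of that choice. Cldn1 levels in MPP were 9.03, 8.39 and 8.77 at 24 h, against 6.63, 6.59 and 7.04 at 0 h, a difference of 1.98 ± 0.13 (adjusted p = 3.62e-08; higher in 3 of 3 pairs). From 2 to 12 h it did not move past the spread, with differences between -0.05 and 0.09 (SE 0.13) and adjusted p of 0.772 or more. Cldn1 in MPP at 24 h thus lay at the level that CDP had at 4 h (8.40 to 8.97), and the 2 ranges overlapped.

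F11r was the early gene in MPP as well. Its levels were 10.63, 10.86 and 10.73 at 2 h, against 9.51, 9.97 and 9.02 at 0 h, a difference of 1.24 ± 0.11 (adjusted p = 3.03e-06). At 4 h it was 1.34 ± 0.11 (adjusted p = 8.67e-07), at 8 h 1.59 ± 0.11 (8.47e-08) and at 12 h 1.64 ± 0.11 (4.75e-08). At 24 h the levels were 11.28, 11.38 and 11.12, a difference of 1.76 ± 0.11 (adjusted p = 1.44e-08), so that 70.4% of the log2 change had been made at 2 h. All F11r arrays of treated MPP, at most 11.38, were below all arrays of treated CDP, at least 11.75.

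Tjp1 rose in MPP too. It had made 18.8% of its 24 h change at 2 h in CDP and 48.8% in MPP, a difference that was not tested. Its levels in MPP were 8.13, 7.53 and 8.04 at 24 h, against 6.91, 6.59 and 6.60 at 0 h, a difference of 1.20 ± 0.09 (adjusted p = 9.4e-08). The difference was 0.59 ± 0.09 at 2 h, 0.88 ± 0.09 at 4 h, 1.05 ± 0.09 at 8 h and 0.96 ± 0.09 at 12 h. The adjusted p was 0.000573 at 2 h and lower at each later time, and the fold limit was met at 8 and 24 h only. Without MPP 0 h replicate 3 the difference at 8 h was 0.92, and without MPP 8 h replicate 3 it was 0.95, both under the fold limit. At 24 h the Tjp1 levels of CDP, 7.95 to 8.67, overlapped those of MPP, 7.53 to 8.13.

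Epcam was not shown to change in MPP. Its levels were 6.62, 6.36 and 6.40 at 24 h, against 6.29, 6.36 and 6.36 at 0 h, a difference of 0.12 ± 0.07 (adjusted p = 0.332), and the differences at earlier times were between -0.02 and 0.09. At 24 h replicate 1 stood above the other 2 arrays. Ctnnb1 had small positive differences in MPP, the largest 0.26 ± 0.04 at 8 h (adjusted p = 0.000834), with 0.17 ± 0.04 at 24 h (adjusted p = 0.0135). Ctnna1 had 0.01 ± 0.04 at 24 h (adjusted p = 0.914), and its sign turned without MPP 0 h replicate 3 (-0.03). Cdh1, given here as a description, had levels of 8.69, 8.46 and 8.14 in MPP at 24 h, against 7.24, 7.62 and 7.32 at 0 h, a difference of 1.04 ± 0.13. Leaving out arrays moved this value between 0.81 and 1.18, and it was past the call rule in 7 of 9 such fits.

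Counted with Cdh1, the call rule was met in MPP by 1 of the 7 genes at 2 h (0.271% of all genes), 1 at 4 h (0.416%), 2 at 8 h (0.657%), 1 at 12 h (0.737%) and 4 at 24 h (1.2%).

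**Figure D3:**
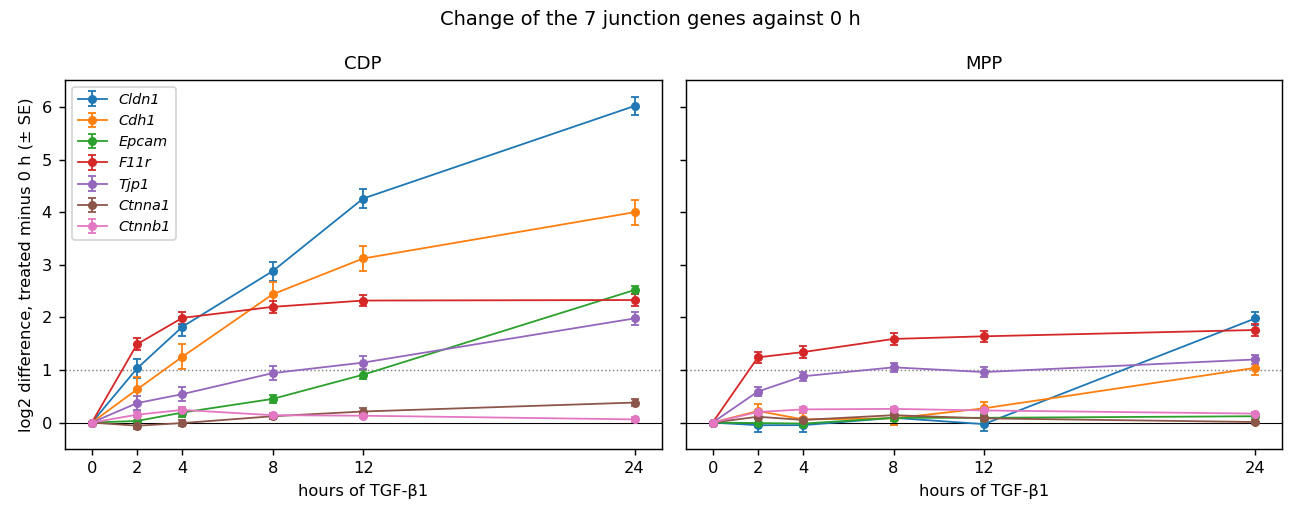
Log2 difference from 0 h (± SE, n = 3 arrays per time) of the 7 genes against hours of TGF-β1, CDP on the left and MPP on the right, with the fold limit of 1 as a dotted line. Cldn1 stood at 6.02 in CDP and 1.98 in MPP at 24 h, and in MPP it left 0 only at 24 h.

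Set against each other at 24 h, the responses of CDP and MPP differed most for Cldn1, by 4.04 ± 0.24 (CDP change minus MPP change), then for Cdh1, by 2.96 ± 0.29, and Epcam, by 2.40 ± 0.11. Tjp1 differed by 0.78 ± 0.17, F11r by 0.57 ± 0.17, Ctnna1 by 0.36 ± 0.07 and Ctnnb1 by -0.12 ± 0.06. These are descriptions of genes chosen for this pattern; 3 of the 7 were past the call rule, as were 1.85% of all genes.

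Before any TGF-β1, CDP and MPP already differed in E-cadherin. The CDP arrays of 0 h also enter the changes on which the genes were chosen. Cdh1 read 8.33, 9.29 and 8.60 in untreated CDP, against 7.24, 7.62 and 7.32 in untreated MPP, a difference of 1.34 ± 0.29 (adjusted p = 0.000928), and the groups did not overlap. It was the only one of the 7 genes called, with 2.81% of all genes called. The call was lost without replicate 1 of both cells (1.47, adjusted p = 0.0172), without replicate 3 of both (1.38, adjusted p = 0.0185) and without CDP 0 h replicate 2 (1.07, adjusted p = 0.0163).

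F11r was also higher in untreated CDP, with 9.94, 10.42 and 10.70, against 9.51, 9.97 and 9.02 in untreated MPP, a difference of 0.85 ± 0.16 (adjusted p = 0.000176) that missed the fold limit and overlapped by 1 array. It met the limit in 4 of 9 fits with arrays left out, where the values ran from 0.44 to 1.09: without replicate 1 or 2 of both cells, without MPP 0 h replicate 2 and without CDP 0 h replicate 1. Ctnna1 was 0.52 ± 0.07 higher in untreated CDP (adjusted p = 5.96e-07), with 10.87 to 11.14, against 10.42 to 10.54 in MPP. For Cldn1 (0.15 ± 0.24, adjusted p = 0.73), Epcam (0.03 ± 0.10, adjusted p = 0.894), Ctnnb1 (0.07 ± 0.04, adjusted p = 0.289) and Tjp1 (-0.46 ± 0.19, adjusted p = 0.0896) no difference was shown.

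Over all 12 groups, Cdh1 was lowest in MPP at 0 h (7.39 ± 0.20, SD, n = 3) and highest in CDP at 24 h (12.74 ± 0.20). The groups of MPP from 0 to 12 h overlapped their neighbours in this order, as did MPP at 24 h and CDP at 0, 2 and 4 h, while CDP at 8, 12 and 24 h stood apart. MPP at 12 h and MPP at 24 h did not overlap. For Cldn1 and Epcam the 2 highest groups were CDP at 12 and 24 h, each clear of its lower neighbour. For Tjp1 the highest group was CDP at 24 h (8.22 ± 0.39) and the next MPP at 24 h (7.90 ± 0.33), which overlapped.

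Across the 12 group means, the levels of Cdh1 correlated with those of Cldn1 at 0.953, Ctnna1 at 0.939, F11r at 0.856 and Epcam at 0.817. These are descriptions over means that share 2 cell types and 1 treatment. Tjp1 stood at 0.165 with Cdh1 and 0.404 with Cldn1, and Ctnnb1 at 0.0197 and -0.0143. Among 2093 genes whose group means span at least 1, the 5 most like Cdh1 were Prkd3 (0.992), Ppp1r11 (0.991), Kctd14 (0.990), Ppm1j (0.988) and Znrd1 (0.986). Prkd3 had a far smaller 24 h change in CDP, 0.87 ± 0.08, than the 4.00 of Cdh1, so that likeness is one of shape. Ppp1r11 and Znrd1 neighbour each other in the genome, 2.57 kb apart with no gene between. The 5 most like Cldn1 were Hpgds (0.981), which encodes a prostaglandin D synthase and had a 24 h difference of 3.27 ± 0.15 in CDP, then Qpct (0.976), Eif5a2 (0.975), Rhot1 (0.975) and Ifnlr1 (0.973), a subunit of the interferon lambda receptor. Those most like Epcam were Dnal1 (0.995), Acot6 (0.992), Fam189a2 (0.990), Gm8479 (0.988) and Epb41l4a (0.985), of which Dnal1 and Acot6 are neighbours, 4.50 kb apart.

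To see whether genes of junctions, with their regulators and ligands, moved more widely, 193 further entries in 7 lists were taken by family. The lists were adherens junction, claudins, tight junction, desmosome and gap junction, E-cadherin repressors and epithelial factors, E-cadherin and EpCAM ligands and processing, and β-catenin signalling. Of the entries 179 genes were measured, and not all of them encode parts of junctions. In CDP at 24 h 14 of the 179 were called, 9 higher and 5 lower (7.82%, against 3.14% of all genes), with a median difference of 0.02, against 0 for all genes. In MPP at 24 h 2 of the 179 were called, both higher (1.12%, against 1.2% of all genes). Most of the 179 thus stayed near 0 in both cells. The lists were chosen with earlier results of these data known, so these shares are not independent of that choice.

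Among the ligands, Itgae (the αE integrin chain, which binds E-cadherin with the β7 chain) rose most. Its levels in CDP were 11.94, 12.35 and 12.42 at 24 h, against 7.25, 7.29 and 7.53 at 0 h, a difference of 4.88 ± 0.16 (adjusted p = 5.2e-11). In MPP they averaged 10.58 ± 0.36 (SD, n = 3) at 24 h, against 7.11 ± 0.18 at 0 h, with no overlap, a difference of 3.47 ± 0.12 (adjusted p = 2.08e-11). The rise was called from 8 h on in CDP (2.16 at 8 h) and from 12 h on in MPP (1.56 at 12 h). Itgb7, which encodes the β7 chain, had -0.30 ± 0.13 in CDP (adjusted p = 0.104) and -0.20 ± 0.11 in MPP (adjusted p = 0.256), and was 1.68 ± 0.19 higher in untreated CDP than in untreated MPP (adjusted p = 8.21e-08). None of the other measured genes of that list of 14 was called at 24 h, when 3.14% of all genes were called in CDP and 1.2% in MPP.

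Of the desmosome and gap junction genes, 28 measured, Dsp (desmoplakin, which ties desmosomes to intermediate filaments) rose in both cells. Its levels in CDP were 9.45, 10.01 and 9.58 at 24 h, against 7.33, 7.44 and 7.32 at 0 h, a difference of 2.32 ± 0.11 (adjusted p = 1.88e-09), and in MPP the difference was 1.53 ± 0.08 (adjusted p = 2.7e-09). Gja1 (connexin 43 of gap junctions) fell by 1.30 ± 0.12 in CDP (adjusted p = 1.05e-06), with 6.94, 6.91 and 6.72 at 24 h, against 8.18, 7.95 and 8.34 at 0 h. In MPP it had -0.85 ± 0.07, short of the fold limit. No other gene of this list was called at 24 h in either cell, when 3.14% of all genes were called in CDP and 1.2% in MPP.

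Tight junction genes other than claudins were called in 4 of 25 cases in CDP at 24 h, when 3.14% of all genes were called (1.2% in MPP). Jam2, a paralogue of F11r, rose by 1.90 ± 0.17 (adjusted p = 1.16e-06), to 9.29, 8.91 and 8.78 at 24 h, against 6.92, 7.10 and 7.26 at 0 h. Marveld2 (tricellulin, of the corners where epithelial cells meet) rose by 1.32 ± 0.06 (adjusted p = 1.1e-09), and Tjp3 (ZO-3, a relative of ZO-1) by 1.19 ± 0.08 (adjusted p = 3.21e-08). Pard6g, a polarity gene, fell by 1.04 ± 0.08 (adjusted p = 1.7e-07). None of the 25 was called in MPP at 24 h, where Jam2 had 0.97 ± 0.11 and Marveld2 0.78 ± 0.06. Occludin (Ocln), a defining membrane protein of tight junctions, had 0.13 ± 0.05 in CDP (adjusted p = 0.0939).

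The claudin list held 24 other measured genes, including claudin-domain genes such as Cldnd1. None was called in any of the 4 comparisons (24 h in CDP, 24 h in MPP, untreated, and the difference of responses), in which 1.2% to 3.14% of all genes were called. Their 24 h differences in CDP ran from -0.77 (Cldnd1) to 0.17 (Cldn20), with a median of 0.02, where Cldn1 had 6.02. Their mean level in CDP was 7.03 to 7.10 at 24 h and 7.05 to 7.08 at 0 h, below the median of all levels (7.95), and no detection measure was used. Cldn7, the claudin that binds EpCAM in epithelia, had 0.01 in CDP (adjusted p = 0.95).

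In the adherens junction list, 27 measured, 2 genes rose and 2 fell in CDP at 24 h, when 3.14% of all genes were called (1.2% in MPP). Actn1 (α-actinin, an actin cross-linker) rose by 1.81 ± 0.15 (adjusted p = 2.91e-07) and Jup (plakoglobin, a relative of β-catenin) by 1.54 ± 0.12 (adjusted p = 1.61e-07). Jup levels were 9.83, 10.67 and 9.73 at 24 h, against 8.28, 8.94 and 8.40 at 0 h. Vcl (vinculin, which binds α-catenin under tension) fell by 1.13 ± 0.07 (adjusted p = 1.8e-08) and Plekha7 by 1.07 ± 0.10 (adjusted p = 1.6e-06). The Plekha7 call was lost without CDP 0 h replicate 2 (-0.96). Ctnnal1, a relative of α-catenin, was past the rule at 8 h (1.17) and 12 h (1.14) but stood at 0.77 ± 0.08 at 24 h. None of the 27 was called in MPP at 24 h. In untreated cells the largest difference was that of Ctnnd2 (δ-catenin, of the p120 family that binds the E-cadherin tail), which read 10.86, 11.51 and 11.09 in CDP, against 7.53, 7.32 and 7.57 in MPP, a difference of 3.68 ± 0.21 (adjusted p = 5.87e-14). Cdh17 was 1.91 ± 0.34 higher in untreated CDP (adjusted p = 8.4e-05), and the call was lost without replicate 1 of both cells (1.90, adjusted p = 0.0285). Actn1 was 1.03 ± 0.28 lower there (-1.03, adjusted p = 0.00752), a call lost without MPP 0 h replicate 3 (-0.96, adjusted p = 0.0348) and in most other fits that left out arrays. In the same comparison Gja1 was also lower in CDP (-1.73 ± 0.16, adjusted p = 2.05e-09). In all, 6 of the 179 genes were called between untreated CDP and MPP, 3.35% of them, against 2.81% of all genes.

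The repressors of E-cadherin did not move as 1 group. Zeb2 fell in CDP, with 9.65, 9.07 and 10.02 at 24 h, against 11.51, 11.37 and 11.59 at 0 h, a difference of -1.91 ± 0.14 (adjusted p = 1.54e-07). Zeb1, its paralogue, rose by 1.19 ± 0.13 (adjusted p = 5.76e-06), to 10.55, 10.33 and 10.74 at 24 h, against 9.27, 9.49 and 9.31 at 0 h. In MPP at 24 h Zeb2 had -0.40 ± 0.09 (adjusted p = 0.0059) and Zeb1 0.42 ± 0.06 (adjusted p = 0.00013), both short of the fold limit. At 2 h Zeb2 had -0.89 in CDP and -0.90 in MPP, and from 8 h on it was called in CDP (-1.12 at 8 h and -1.48 at 12 h). Snai1 had 0.30 ± 0.12 in CDP (adjusted p = 0.0763), Snai2 0.04 (adjusted p = 0.775) and Twist1 0.12 (adjusted p = 0.227). Grhl2 and Ovol1, factors that keep up epithelial genes, had -0.04 (adjusted p = 0.759) and -0.01 (adjusted p = 0.975) in CDP. Zeb1 and Zeb2 were the 2 called genes among 24 of this list in CDP at 24 h, when 3.14% of all genes were called.

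Of 38 measured genes of β-catenin signalling, 1 was called in CDP at 24 h, when 3.14% of all genes were called. It was the Wnt receptor gene Fzd7 (1.04 ± 0.12, adjusted p = 1.07e-05). Its call was lost without the replicate block (adjusted p = 0.0218) and in 4 of the fits that left out arrays, such as that without CDP 24 h replicate 2 (0.94). The target genes Axin2 and Lef1 had -0.08 (adjusted p = 0.382) and 0 (adjusted p = 0.978). Ccnd1, another target, was 1.34 ± 0.10 higher in untreated CDP than in untreated MPP (adjusted p = 2.95e-11) and had 0.16 ± 0.11 at 24 h in CDP (adjusted p = 0.388).

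**Figure D4:**
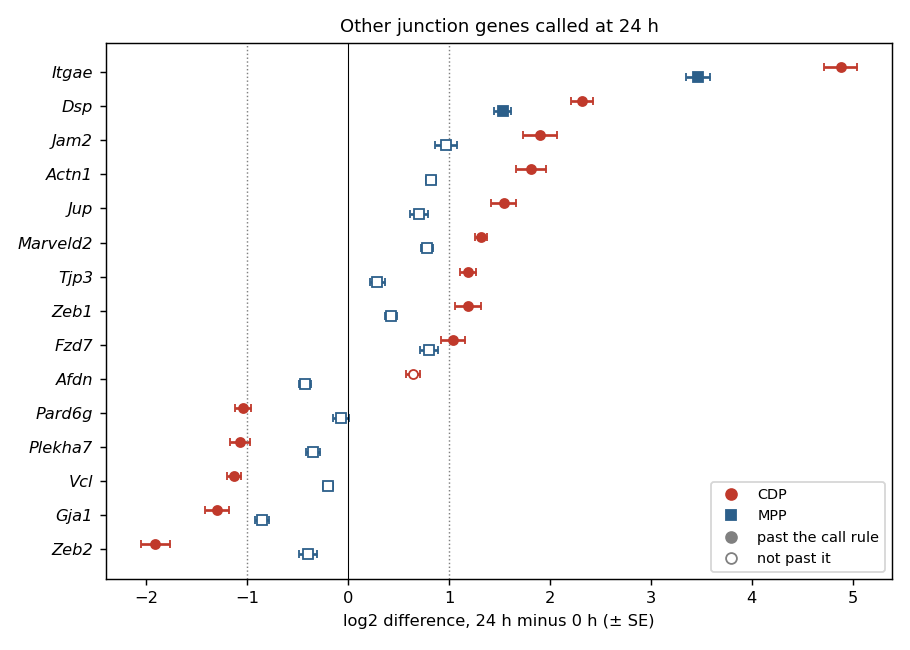
Log2 difference at 24 h from 0 h (± SE, n = 3 arrays per group) of the 15 genes among the 179 of the junction lists that were called in CDP, in MPP or in the difference between their responses, with CDP as circles above MPP as squares and filled symbols for values past the call rule. Itgae and Dsp are the genes filled in both cells.

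The response differed between the progenitors for 3 of the 179 genes, 1.68% of them, against 1.85% of all genes. The count was 6 without replicate 2 of both cells and 5 without CDP 0 h replicate 3, CDP 24 h replicate 2 or CDP 24 h replicate 3. Itgae rose more in CDP, by 1.41 ± 0.22 (adjusted p = 3.05e-05). Zeb2 fell more in CDP (-1.51 ± 0.18, adjusted p = 8.74e-07). Afdn (afadin, which links nectins to actin) had 0.64 ± 0.07 in CDP and -0.43 ± 0.06 in MPP, and the responses differed by 1.07 ± 0.10 (adjusted p = 7.58e-09). Jam2, Dsp, Jup and Actn1 differed by 0.79 to 0.99, under the fold limit.

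**Figure D5:**
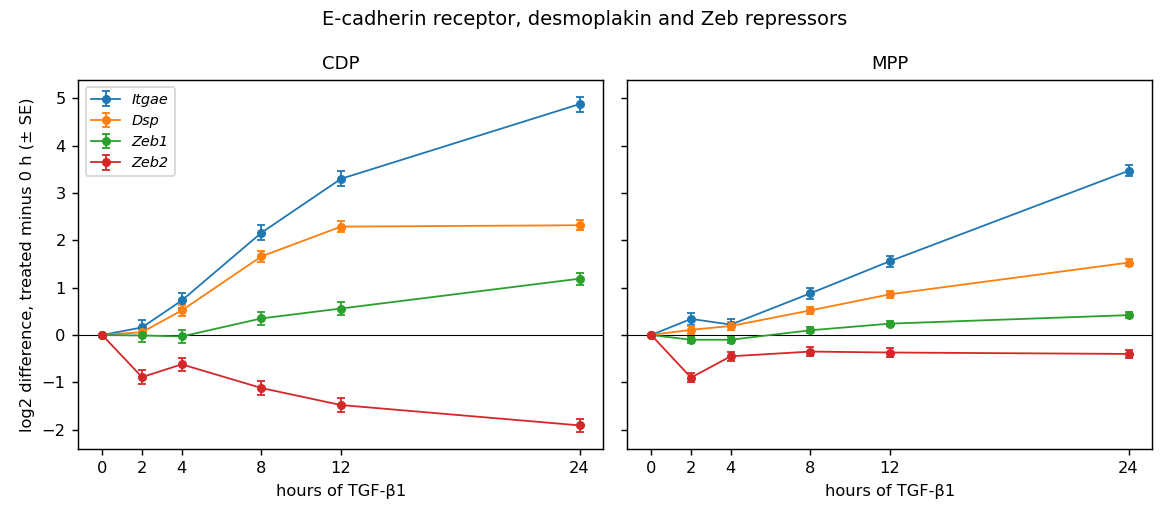
Log2 difference from 0 h (± SE, n = 3 arrays per time) of Itgae, Dsp, Zeb1 and Zeb2 against hours of TGF-β1, CDP on the left and MPP on the right. Itgae reached 4.88 in CDP and 3.47 in MPP at 24 h, and Zeb2 -1.91 in CDP and -0.40 in MPP.

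The cells' labels and the junction genes were set beside markers of other cells. Of 14 progenitor and dendritic markers, 5 were called higher and 2 lower in untreated CDP than in untreated MPP, and the rest were not called (2.81% of all genes called). Flt3 and Itgax, receptor genes of dendritic progenitors and dendritic cells, averaged 12.37 and 10.87 in untreated CDP, against 10.23 and 7.22 in untreated MPP. Kit and Cd34, genes of earlier progenitors, averaged 8.63 and 12.07 in untreated CDP, against 11.30 and 13.11 in untreated MPP. The mast cell protease gene Cpa3 averaged 6.46 ± 0.35 in untreated CDP, against 11.97 ± 0.09 in untreated MPP. The mean level of the 8 mast cell markers was 6.99 to 7.18 in CDP at 24 h, against 6.79 to 6.92 at 0 h, and 1 of the 8 (Cpa3) was called in CDP at 24 h (1.36 ± 0.09). In MPP it was 8.80 to 8.88 at 24 h, against 8.97 to 9.05 at 0 h, and none was called (of all genes, 3.14% in CDP and 1.2% in MPP). Their part in the differences between MPP and CDP was not tested.

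Of the 13 Langerhans cell markers, 5 rose in CDP at 24 h (Itgae, Axl, Ccr6, Ahr and Runx3), when 3.14% of all genes were called. The mean level of the list in CDP was 11.97 to 12.07 at 24 h, against 10.75 to 10.93 at 0 h. In MPP 2 of the 13 rose at 24 h (1.2% of all genes called). Before treatment 5 were higher in CDP than in MPP (2.81% called). The response at 24 h was called higher in CDP for 4 (1.85% called). Axl, a receptor tyrosine kinase, rose by 3.71 ± 0.28 (adjusted p = 1.35e-07), and Ccr6, the receptor for Ccl20, by 2.34 ± 0.18 (adjusted p = 1.77e-07). Langerin (Cd207), the defining marker, read 6.03, 6.15 and 6.11 at 24 h in CDP, against 6.10, 6.18 and 6.09 at 0 h, and was not shown to change (-0.03 ± 0.06, adjusted p = 0.819).

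Of the 16 keratinocyte and epithelial markers, 1 was called in CDP at 24 h (Cd200, 1.55 ± 0.27, adjusted p = 0.00047) and none in MPP. Their mean level was 7.40 to 7.46 in CDP at 24 h, against 7.19 to 7.27 at 0 h. The defining genes were not shown to change. Krt5 averaged 6.89 at 24 h and 6.92 at 0 h in CDP, Krt14 6.80 and 6.80, and Trp63 7.72 and 7.72. Krt18, a keratin of simple epithelia, had 0.55 ± 0.08 (adjusted p = 9.23e-05), short of the fold limit. Of 11 endothelial markers none was called in CDP at 24 h and 1 (Eng) in MPP, and of 10 fibroblast markers none was called in either. None of 7 erythroid or 8 T and NK cell markers was called at 24 h in either cell, and 1 of 6 megakaryocyte markers (Itgb3) and 1 of 5 B cell markers (Cd79b) fell in CDP. Of 14 progenitor and dendritic markers 3 rose in CDP and 2 in MPP at 24 h, when 3.14% and 1.2% of all genes were called.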

How the data were processed

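Total RNA of 36 cultures was hybridised to Affymetrix Mouse Gene 1.0 ST arrays. The authors deposited log2 intensities, which the submitters' processing notes credit to Affymetrix Power Tools and RMA (background correction, quantile normalization and median polish), with no versions given in the sources used here. RMA values are relative and compress large differences, and 3 arrays per group limit the precision. The study's own methods name another summary, FARMS, for its analysis. Probe sets were named through GEO's platform annotation: of 35556, 21789 had 1 symbol, 1621 several and 12146 none here. For each of 19938 genes the probe set with the highest mean over the arrays was used. With R 4.3.3, limma 3.58.1 (lmFit, eBayes, two-sided, Benjamini-Hochberg over all genes of a contrast) was fitted per cell type with time and replicate as factors, as the study's methods describe (the replicate being a block). Untreated CDP and MPP were compared over all 36 arrays without a block, and the difference of responses with each cell type's own replicate block. The numbers paired arrays within a cell type: each array's deviation correlated with that of its own number at 0 h at 0.212 or more in CDP and 0.189 or more in MPP. Across cell types 11 of 18 same-number correlations were above 0.1. The fits were tested on simulated data. Nothing else states that cultures were independent beyond the study's words, so p-values measure the spread between these samples. The members and lists were chosen with earlier results of these data known. Genes named were the members, genes of the lists called at 24 h or between untreated cells (up to 4 a list), the 5 most alike to Cldn1, Cdh1 and Epcam over 12 group means, and defining markers. Cldnd1, Cldn20, Cldn7, Ocln, Ctnnal1, Snai1, Snai2, Twist1, Grhl2, Ovol1, Axin2, Lef1 and Krt18 were named after their values were seen. Promoter windows came from RefSeq (GRCm38.p6).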

Additional observations from a re-analysis of the deposited data

Results flagged for a closer look

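Like the 7 genes, the lists of other junction genes were chosen with earlier results of these data known. The 24 h responses of CDP and MPP differed by limma's test of the difference for 3 genes of these lists: an E-cadherin ligand chain (Itgae), a repressor (Zeb2) and a gene of the adherens junction list (Afdn). Leaving out arrays gave 3 to 6 such genes, with 6 without replicate 2 of both cells and 5 without CDP 0 h replicate 3, CDP 24 h replicate 2 or CDP 24 h replicate 3. The difference (CDP change minus MPP change) was 1.41 ± 0.22 for Itgae (adjusted p = 3.05e-05) and 1.07 ± 0.10 for Afdn (adjusted p = 7.58e-09), whose levels moved in opposite directions. For Zeb2 it was -1.51 ± 0.18 (adjusted p = 8.74e-07).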

How the results depend on the processing

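The alternative settings gave 1030 values to set beside those above, 1 for each result under a setting, and most changed no call. With only genes above the median level, 3 of the 7 genes were past the call rule in CDP at 24 h, since that filter drops Epcam and Tjp1. Of the 6 genes tested in MPP, 2 were then called at 24 h, against 3. Leaving out replicates or arrays in turn gave 0 to 2 genes of the 7 called between untreated CDP and MPP, against 1, and 3 to 6 other junction genes with different responses, against 3. It gave 3 of 6 in MPP and 5 of 7 in CDP at 24 h each time. For Ctnna1 in MPP at 24 h the sign turned with the 2 arrays that stood apart left out (-0.03), and for it and for Epcam in untreated cells when arrays were left out (-0.04 to 0.04 and -0.01 to 0.06); neither was called. Tjp1 in MPP at 8 h lost its call without MPP 0 h replicate 3 (0.92), without MPP 8 h replicate 3 (0.95) and without replicate 3 throughout (0.86). Plekha7 in CDP stood at -0.96 without replicate 2. Without the replicate block the Fzd7 difference in CDP at 24 h stayed 1.04 with adjusted p = 0.0218, and with a replicate block between untreated cells the Cdh1 difference stayed 1.34. The block changed no other call of the genes for which it was tried, which were the 7 at 24 h and the other junction genes called there, between untreated cells or in the difference of responses, and the calls of the 7 in MPP. Without the 2 arrays that stood apart, the other junction genes called were 3 in MPP at 24 h, against 2, 4 in the difference of responses, against 3, and 5 between untreated cells, against 6. Without CDP 2 h replicate 3, an alternative chosen after seeing the data, 1 of the 7 was past the rule in CDP at 2 h, against 2, and Cldn1 stood at 0.93. No detection measure was used, and 3 arrays per group limit the precision.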
